A study of Mus musculus with 6 samples.

Results

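Tlr7, Cxcl10 and 38 other immune and interferon genes were examined in the striatum of mice that lack the neuronal RNA-binding protein HuD. The 40 genes, of 1088 transcripts in the deposited lists of changed transcripts, were all those whose symbol belongs to a family of immune genes: chemokines, interleukins, Toll-like receptors, interferons and interferon-induced genes, major histocompatibility genes, TNF receptors, CD and Ly6 antigens, NK and Fc receptors, complement and defensins. Symbols on 2 or more rows of the lists, and genes of chromosome 4 from 90 to 130 Mb, would have been left out, but no matching gene met either condition. Of the 40 genes, 30 had been listed as lower and 10 as higher in HuD-KO, beside 790 lower and 298 higher of all 1088 listed transcripts.

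Striatal RNA of 3 adult HuD KO mice (Elalvl4-/- in the labels, the gene Elavl4) and 3 adult wild-type littermates (WT) was hybridized to 1-colour arrays of long non-coding and messenger RNAs. The labels name no cell type in which the gene was deleted, and they give neither sex nor age beyond adult. HuD binds AU-rich elements of messenger RNAs in neurons, and the comparison asked how its loss alters RNA levels. Values are given below as the scaled signal, which is the signal of a probe in percent of the 75th percentile of its array, in the order of replicates 1, 2 and 3, and differences are HuD-KO minus WT on the log2 scale.

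The lists were made from these same arrays by a threshold on fold change and p-value, so the size and direction of each difference below is what chose the genes. They are given as a description, with no test. A gene that did not differ carries no name here, and the lists cannot show how many immune genes were alike in both groups. Each value is that of a single probe for a listed transcript, and any unlisted transcripts of the same gene carry no name here.

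Type I interferons are cytokines that cells secrete on sensing viral nucleic acid, through receptors such as the endosomal single-stranded RNA sensor Tlr7. They signal through STAT and IRF factors to induce a shared set of genes, among them the oligoadenylate synthetases (Oas), the guanylate-binding proteins (Gbp), the Ifi genes and the chemokine Cxcl10. In the brain these genes are expressed mainly by microglia, border macrophages, vascular cells and, during infection, neurons and astrocytes.

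Several of the probes share sequence with the probe of another member of the same gene family, and their sequences are shown for that reason. The 3 interferon alpha genes lie within 112 kb of each other on chromosome 4 and their probes are nearly the same. Aligned to each other, the 60-base probes for Ifna2 and Ifna14 differed at 2 of 60 bases. The Ifna2 and Ifna9 probes overlapped by 51 bases with 1 mismatch and shared an unbroken run of 47 bases. Capitals mark the bases that differ among the aligned probes.
Ifna2: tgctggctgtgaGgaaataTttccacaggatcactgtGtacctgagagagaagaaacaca
Ifna14: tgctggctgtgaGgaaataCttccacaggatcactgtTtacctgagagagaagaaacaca
Ifna9: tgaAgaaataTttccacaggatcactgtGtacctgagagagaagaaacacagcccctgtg
The deposited tables list 10 other transcripts that can hybridize to the Ifna2 probe, 9 for Ifna14 and 5 for Ifna9. These 3 probes therefore report interferon alpha transcripts together and are not independent of each other.

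The probes for Oas1a and Oas1h, whose genes start 34.8 kb apart on chromosome 5, shared a run of 24 of 60 bases, shown in capitals. No cross-hybridizing transcript is listed for either probe. Among the other members, such transcripts are listed for Fcer2a (2), Il15ra (1) and Cd72 (1).
Oas1a: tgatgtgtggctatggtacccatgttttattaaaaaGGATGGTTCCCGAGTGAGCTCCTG
Oas1h: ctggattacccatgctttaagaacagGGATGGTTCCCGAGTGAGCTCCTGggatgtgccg

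Of 47857 tested probes, 14.4% were lower and 16.0% were higher in HuD-KO at a limma adjusted p under 0.05, and the median difference over all of them was 0.04. The Elavl4 probe gave 2.11, 1.49 and 1.43 in HuD-KO and 46.9, 39.0 and 61.6 in WT. It was well above background on 0 HuD-KO and 3 WT arrays, at least 15.5-fold lower in HuD-KO. Row 1 of the slide held the 3 HuD-KO arrays and WT replicate 1, and row 2 held WT replicates 2 and 3. On the HuD-KO replicate 2 array, a corner with 7472 of the tested probes was dim relative to the group (mean deviation -0.46, against 0.04 elsewhere), and it held the probes for Ccl2, Il22, Cd163, Fcer2a, Cfb and Cd72. Y-linked transcripts differed between the groups. Uty, for example, gave 558, 583 and 598 in HuD-KO and 11.7, 15.03 and 12.1 in WT, and the 4 Y-linked genes in the lists were all higher in HuD-KO. For every gene below, genotype and sex chromosomes cannot be told apart.

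All 40 probes could be tested. The background for a difference of over 2-fold was 4.63% of tested probes lower and 1.77% higher, and the 2 groups of arrays did not overlap for 22.5% (HuD-KO lower) and 27.3% (HuD-KO higher). Among the 40 genes, 39 were past 2-fold, and the groups overlapped for 0 of the 40. These counts and the medians below use the measured value of every probe, also where the dimmer group was not well above background. For Ccl8 and Tnfrsf9 the bounds, 1.25-fold and 1.27-fold, lie below 2-fold. Nothing is read from these counts, since the same comparison chose the genes. The lowest fold belonged to C1ql3 at 1.98-fold, just outside 2-fold on this scale, and the nearest values inside it were those of Cd82 at 2.02-fold and Gbp6 at 2.05-fold. The median difference was -1.50 over the 30 lower genes, from -3.58 to -1.02, beside -1.47 over the other 759 transcripts listed as lower that were measured. Over the 10 higher genes it was 1.28, from 0.99 to 2.29, beside 1.19 over the other 288. All of these values had to pass the same threshold, and nothing is read from how near the medians lie.

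**Figure D1:**
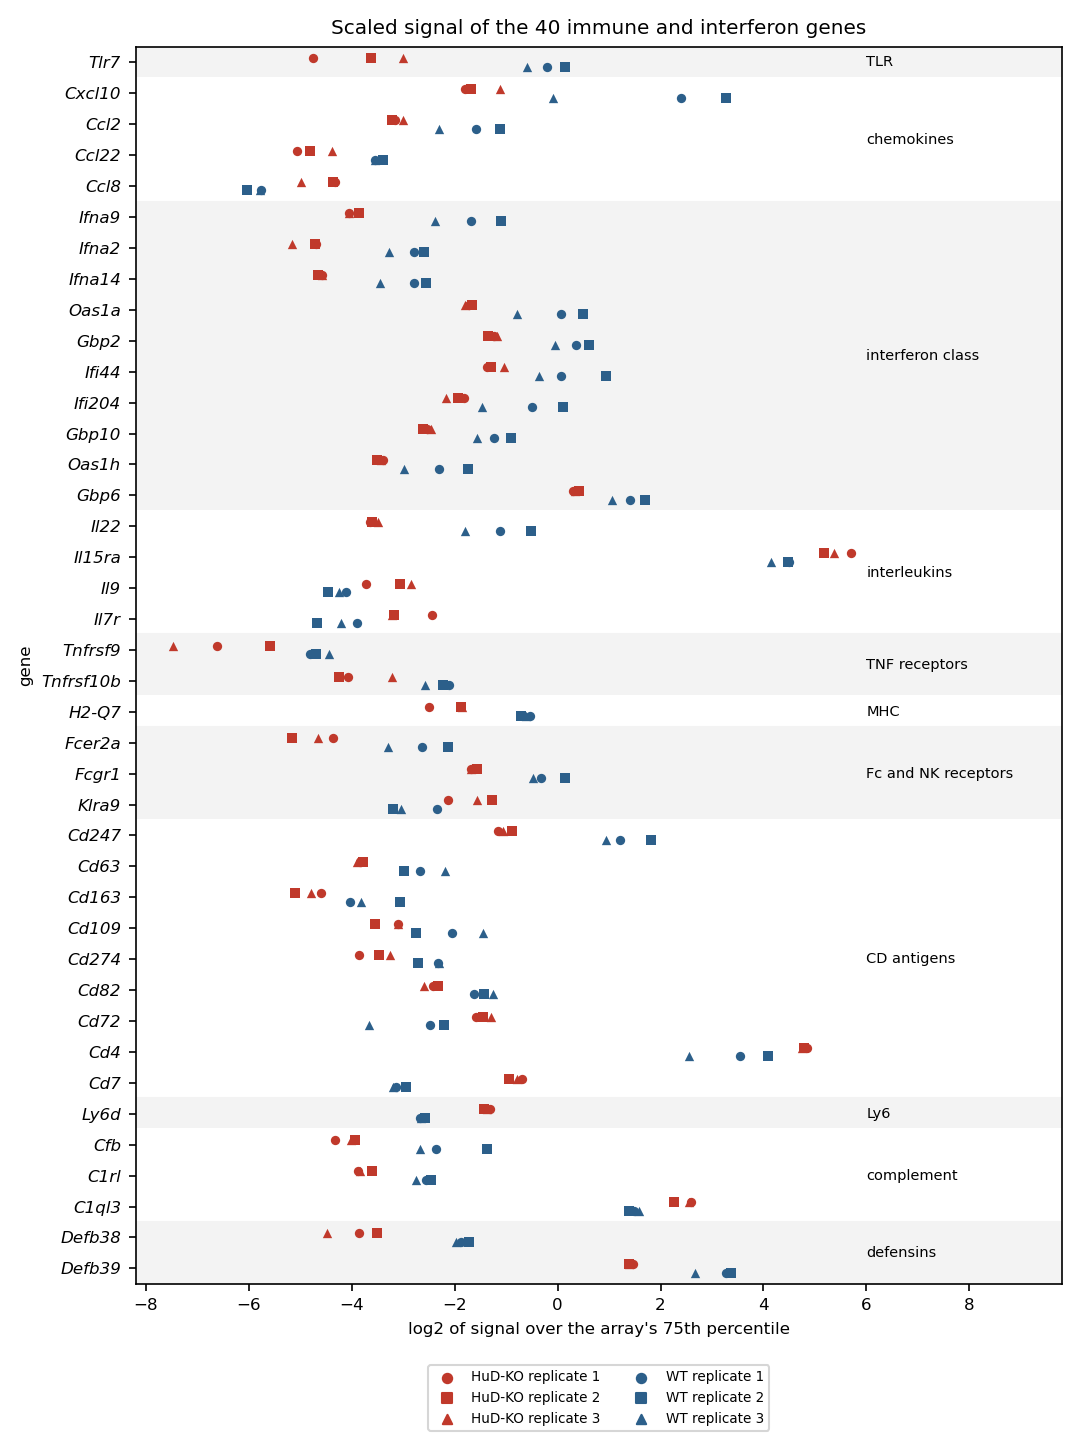
Scaled signal of each of the 40 genes on each of the 6 arrays, as log2 of the signal over the array's 75th percentile (x axis), by gene and gene family (y axis); red points are HuD-KO and blue points WT, with a shape for each replicate. The blue triangles (WT replicate 3) lie nearest to the HuD-KO points in all 10 genes of the interferon class, and the red points of these genes lie close together.

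Tlr7 encodes the endosomal receptor for single-stranded RNA and lies on the X chromosome (167304931 to 167330528, minus strand). The scaled signal was 3.70, 8.10 and 12.4 in HuD-KO and 86.2, 111 and 66.2 in WT, a difference of -3.58 (SE 0.55, n = 3). This was the largest of the 40 differences on this scale, but that of Cxcl10 was larger with normexp background correction (-3.04 against -2.34), within row 1 of the slide (-3.93 against -3.58), without HuD-KO replicate 1 (-3.26 against -3.10) and without WT replicate 3 (-4.37 against -3.76). The HuD-KO arrays spread more than the WT arrays, with an SD of 0.89 against 0.37 on the log2 scale, and the lowest WT array was still above all HuD-KO arrays. Tlr7 was the 1 gene of the 40 on the X chromosome. It was well above background on all 6 arrays. No other Toll-like receptor or NLRP gene was among the members.

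Cxcl10, a chemokine that draws activated T cells and is induced by interferon, lies on chromosome 5 (92346639 to 92348889, minus strand). The scaled signal was 28.8, 31.3 and 45.9 in HuD-KO and 529, 967 and 93.8 in WT, a difference of -3.39 (SE 1.03, n = 3). The WT arrays differed from each other by more than those of any other member, with an SD of 1.75 on the log2 scale against 0.36 in HuD-KO. WT replicate 3 lay nearer to the HuD-KO arrays than to the other WT arrays. Without it the difference was -4.37, and without WT replicate 2 it was -2.69.

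The other chemokine ligands differed less. Ccl2, which recruits monocytes, gave 11.3, 10.8 and 12.5 in HuD-KO and 33.5, 45.8 and 20.2 in WT, a difference of -1.45 (SE 0.35). Ccl8, a monocyte chemokine that starts 79.6 kb from Ccl2 on chromosome 11, had the opposite direction, with 5.005, 4.84 and 3.17 in HuD-KO and 1.85, 1.52 and 1.82 in WT. The WT arrays of Ccl8 were not well above background, and on this scale it was at least 1.25-fold higher in HuD-KO. That bound did not hold with normexp background correction, where the difference was 0.02. Ccl22, which attracts regulatory T cells, was well above background on 2 of 3 HuD-KO arrays and, on this scale, at least 2.34-fold lower. The 2 neighbouring chemokines of chromosome 11 thus lay in different lists.

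The interferon class held 10 genes, all among the lower ones: the 3 interferon alpha genes, Oas1a and Oas1h, Gbp2, Gbp6 and Gbp10, and Ifi44 and Ifi204. Their median difference was -1.51. Oas genes encode enzymes that activate RNase L on double-stranded RNA, Gbp genes encode GTPases that act against intracellular pathogens, and Ifi204 encodes a DNA sensor of the PYHIN family.

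The interferon alpha probes were dim, and those of Ifna9 gave 6.04, 6.94 and 6.03 in HuD-KO and 30.96, 46.8 and 19.3 in WT (difference -2.26, SE 0.38). Ifna2 gave 3.89, 3.83 and 2.79 in HuD-KO and 14.5, 16.5 and 10.3 in WT. It was well above background on 2 of 3 HuD-KO arrays and, on this scale, at least 3.88-fold lower. Ifna14 gave 4.20, 3.96 and 4.19 in HuD-KO and 14.5, 17.0 and 9.09 in WT (difference -1.67, SE 0.27). All 3 probes had the same order of WT arrays, and the order of the HuD-KO arrays differed among them. The genes start 21.5 to 21.6 Mb from Elavl4 on the same chromosome, and Ifna2, the nearest to the region that the choice of genes avoided, lies 1.32 Mb outside it. The part of the targeted chromosome in their difference was not tested.

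Among the interferon-induced genes, Oas1a gave 30.3, 31.5 and 28.7 in HuD-KO and 104, 141 and 58.0 in WT (difference -1.65, SE 0.38). Gbp2 gave 42.4, 38.9 and 44.4 in HuD-KO and 128, 154 and 95.9 in WT (difference -1.56, SE 0.21). Ifi44 gave 38.8, 40.5 and 48.5 in HuD-KO and 105, 191 and 77.6 in WT (difference -1.45, SE 0.40). In each of these genes the HuD-KO arrays lay within a narrow range and the WT arrays were spread out, with replicate 2 the highest and replicate 3 the lowest. The differences were -1.35 for Ifi204, -1.30 for Gbp10, -1.11 for Oas1h and -1.04 for Gbp6. Gbp10 and Gbp6 start 55.0 kb apart on chromosome 5.

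The same order of WT arrays, replicate 2 above replicate 1 above replicate 3, was seen in 10 of the 10 interferon-class genes. It was seen in 26.4% of all tested probes, in 45.3% of the other listed lower transcripts and in 11 of the 20 lower members outside the class. Compared with the mean of the HuD-KO arrays, the median gene of the class was 2.91-fold higher on WT replicate 1, 4.17-fold higher on WT replicate 2 and 1.94-fold higher on WT replicate 3. The median SD of the class was 0.55 in WT and 0.09 in HuD-KO, beside 0.35 and 0.19 over the other listed lower transcripts and 0.16 and 0.11 over all tested probes. The SD was larger in WT than in HuD-KO for all 10 genes, for 521 of the 759 other listed lower transcripts and for 60.9% of tested probes. WT replicate 3 was the lowest WT array in 22 of the 30 lower genes, beside 54.0% of the other listed lower transcripts and 35.7% of tested probes. This order was noticed after the values were seen, and no test was made of it.

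**Figure D2:**
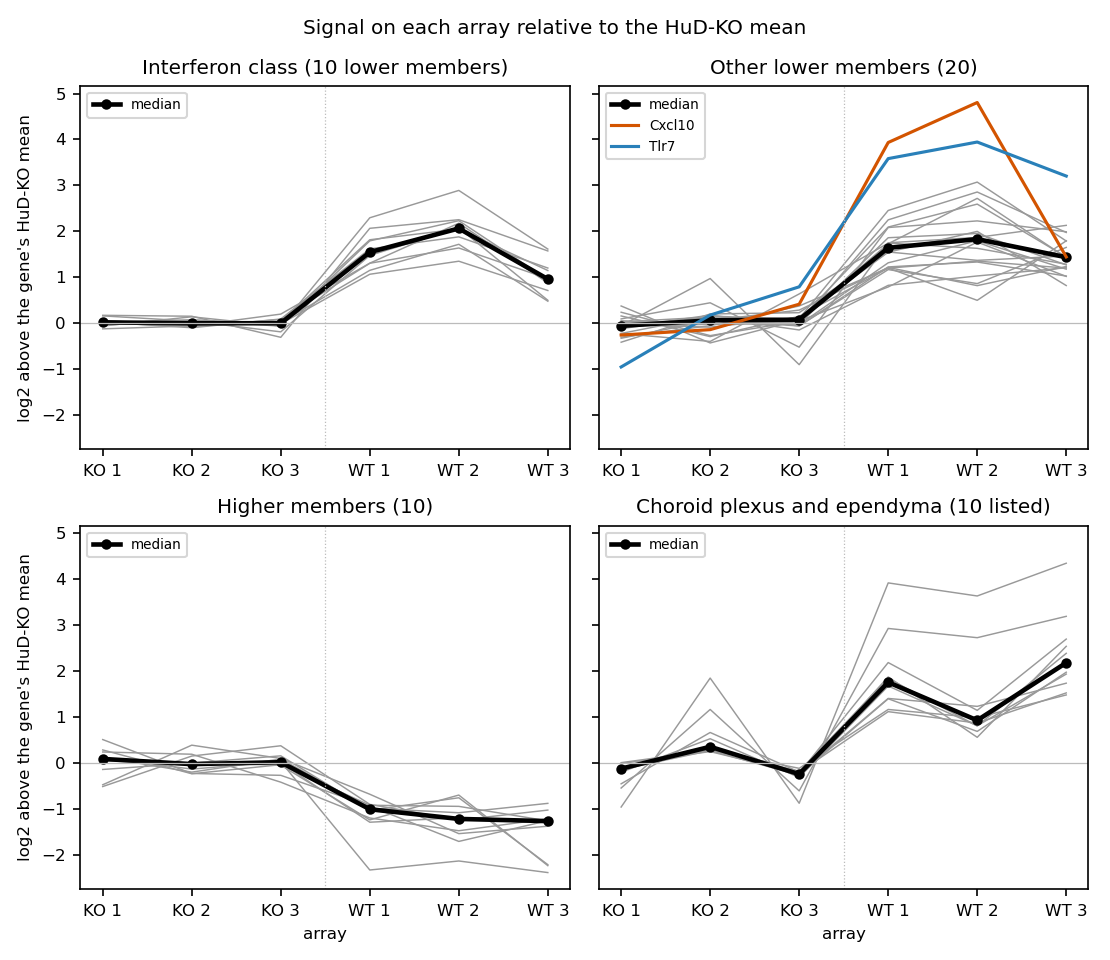
Signal of each gene on each array (x axis) as log2 above the mean of its HuD-KO arrays (y axis), with a grey line per gene and the median in black, for the interferon class, the other lower members, the higher members and the listed markers of choroid plexus and ependyma. The median of the interferon class is highest on WT replicate 2 and lowest among WT arrays on WT replicate 3, and the choroid plexus markers have the reverse order.

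Genes of the pathway outside the symbol families were looked up in a list of 51 interferon signalling, nucleic acid sensing and NF-kappa-B genes. In the lists, 1 of the 51 was named as lower and 0 as higher. It was Usp18, an interferon-induced protease that removes ISG15 from proteins and restrains interferon signalling, with 26.3, 26.7 and 27.1 in HuD-KO and 85.6, 142 and 39.5 in WT (difference -1.55). It had the same order of WT arrays as the interferon class. The other 50, among them the receptors' signalling factors, were not named in the lists and were not analysed here. Of 12 genes of antigen processing, 0 were in the lists.

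A pair of lower transcripts, found after the values were seen, carry older symbols in the deposited tables but are interferon-inducible genes in the RefSeq annotation. 2010002M12Rik, now Ifit1bl2, belongs to the IFIT family of proteins that bind viral RNA. It gave 1461, 1626 and 1359 in HuD-KO and 8211, 13540.0 and 5059 in WT (difference -2.48), and its probe lay where HuD-KO replicate 2 was dim. AI607873, now Ifi207, is a PYHIN gene near Ifi204 on chromosome 1, with 12.7, 14.4 and 13.6 in HuD-KO and 29.6, 39.7 and 23.1 in WT (difference -1.15). Both had the order of WT arrays described above.

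The promoters of these genes were searched for motifs of interferon-activated, NF-kappa-B and myeloid transcription factors. Windows of 250 bases before to 50 after the start were taken from RefSeq (GRCm38.p6), which held 29 of the 40 genes (not Tlr7, Ccl2, Cfb, Gbp6, Gbp10, Ifi204, Cd4, Cd7, Cd109, Ly6d and Tnfrsf10b). The interferon-stimulated response element core, searched as GAAANNGAA on both strands, was found in 8 of 22 lower genes (Cd274, Cxcl10, Gbp2, Ifi44, Ifna2, Ifna9, Ifna14 and Oas1a) and 1 of 7 higher genes (Il15ra). It was found in 9.76% of all 27025 genes and in 11.4% of the other listed lower genes with a window. The gamma-activated site, TTCNNNGAA, was found in 6 of 22 lower and 1 of 7 higher genes, and in 9.55% of all genes. The PU.1 core, GAGGAA, was found in 7 of 22 and 5 of 7, and in 31.3% of all genes. A match to the kappa-B consensus was found for Cxcl10, H2-Q7 and Tnfrsf9 and for 0 of the 7 higher genes, and in 6.55% of all genes. The numbers are small, the 3 interferon alpha promoters are near copies, and a match describes the letters and not binding.

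Parts of 6 promoters are shown because they hold a response element core, those of Cxcl10 and of the interferon-induced Oas1a and Gbp2 among them. Oas1h, which had a window, held no match. Capitals mark the core and, in Cxcl10, also a pair of overlapping kappa-B matches that begin 104 and 103 bases before the start. Each is written 5′ to 3′ on the strand of the gene, and the core may read on the opposite strand.
Cxcl10, chr5:92348963-92349122, minus strand: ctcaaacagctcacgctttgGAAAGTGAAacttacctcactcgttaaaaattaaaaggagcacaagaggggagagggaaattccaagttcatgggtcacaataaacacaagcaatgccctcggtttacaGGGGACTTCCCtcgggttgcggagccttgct
Oas1a, chr5:120907526-120907565, minus strand: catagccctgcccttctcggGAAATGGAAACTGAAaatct
Gbp2, chr3:142620585-142620633, plus strand: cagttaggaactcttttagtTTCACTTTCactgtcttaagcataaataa
Cd274, chr19:29367342-29367390, plus strand: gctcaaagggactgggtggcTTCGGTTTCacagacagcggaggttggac
Ifna9, chr4:88592482-88592571, minus strand: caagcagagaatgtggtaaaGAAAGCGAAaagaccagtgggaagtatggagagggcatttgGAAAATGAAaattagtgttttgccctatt
Il15ra, chr2:11705124-11705172, plus strand: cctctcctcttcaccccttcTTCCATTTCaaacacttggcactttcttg
In Oas1a a pair of cores overlap and end 6 bases before the start, and in Ifna9 the cores begin 166 and 125 bases before it. Il15ra carries the core although it was higher in HuD-KO.

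**Figure D3:**
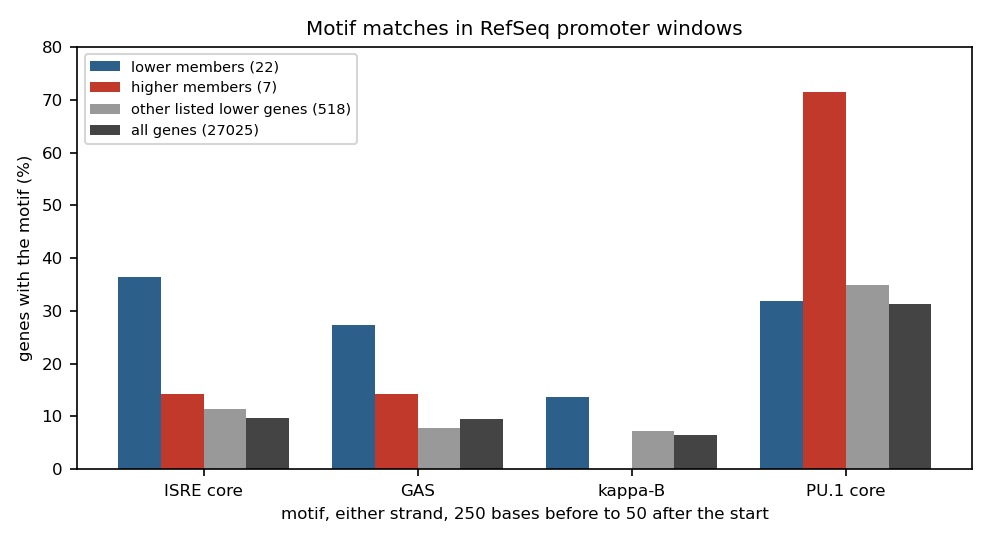
Percent of genes (y axis) with at least 1 match to each of 4 motifs (x axis) in the promoter window, for the 22 lower and 7 higher members with a window, the 518 other listed lower genes and all 27025 genes. The response element core was found in 8 of 22 lower members and in 9.76% of all genes, and the PU.1 core bar of the higher members stands for 5 of 7 genes.

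Among interleukins and their receptors, 1 gene was lower and 3 were higher. Il22, a cytokine of lymphocytes that acts on epithelia, gave 7.99, 8.19 and 8.94 in HuD-KO and 45.8, 70.3 and 28.9 in WT (difference -2.44, SE 0.37). Its WT arrays were in the order of the interferon class. Il7r, the receptor for interleukin 7 on lymphocytes, gave 18.3, 10.98 and 10.7 in HuD-KO and 6.71, 3.93 and 5.38 in WT (difference 1.31, SE 0.34). Il9, a T cell cytokine, gave 7.52, 11.9 and 13.9 in HuD-KO and 5.75, 4.53 and 5.27 in WT (difference 1.06, SE 0.29). Il15ra, which presents interleukin 15 to neighbouring cells, was bright on all arrays, with 5187, 3620.0 and 4151 in HuD-KO and 2249, 2212 and 1776 in WT (difference 1.05, SE 0.19). The interleukin group thus held members of both directions.

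Both TNF receptors were lower. Tnfrsf10b, a death receptor for TRAIL, gave 5.91, 5.24 and 10.7 in HuD-KO and 23.1, 21.4 and 16.8 in WT (difference -1.55, SE 0.35). Tnfrsf9, the T cell costimulator 4-1BB, gave 1.01, 2.07 and 0.563 in HuD-KO, where it was well above background on 0 of 3 arrays, and 3.55, 3.85 and 4.62 in WT. It was at least 1.27-fold lower. H2-Q7, a non-classical class I histocompatibility gene, gave 17.7, 27.1 and 27.6 in HuD-KO and 69.0, 60.9 and 64.9 in WT (difference -1.46, SE 0.22). Its WT arrays lay close together, unlike those of the interferon class.

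Among Fc and NK receptors, Fcgr1, the high-affinity IgG receptor of macrophages and microglia, gave 31.1, 33.9 and 31.2 in HuD-KO and 79.5, 111 and 72.2 in WT (difference -1.42, SE 0.19). Fcer2a, the low-affinity IgE receptor of B cells, gave 4.87, 2.79 and 3.95 in HuD-KO and 16.05, 22.7 and 10.2 in WT. It was well above background on 2 of 3 HuD-KO arrays and, on this scale, at least 3.83-fold lower. Both had the order of WT arrays of the interferon class. Klra9, an NK cell receptor of the Ly49 family, was higher, with 22.7, 41.4 and 33.9 in HuD-KO and 19.7, 10.9 and 12.2 in WT (difference 1.20, SE 0.37), so that the nearest arrays of the 2 groups lay close together.

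The CD antigens, a naming class of cell surface proteins with unrelated functions, held 6 lower and 3 higher genes. Cd247, the zeta chain of the T cell receptor, gave 44.7, 54.0 and 48.0 in HuD-KO and 231.5, 352 and 191 in WT (difference -2.36, SE 0.27). Cd7, a T and NK cell antigen, had the largest difference of the higher genes, with 61.7, 51.8 and 58.0 in HuD-KO and 11.3, 12.9 and 10.9 in WT (difference 2.29, SE 0.11). Cd4, the coreceptor of helper T cells, gave 2879, 2763 and 2674 in HuD-KO and 1169, 1702 and 586 in WT (difference 1.40, SE 0.45). These 3 genes of the T cell surface thus lay in both directions, and WT replicate 3 was the lowest WT array for each of them.

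Cd72, a B cell coreceptor, differed by 1.34 (SE 0.46). For Cd4 and Cd72, WT replicate 3 lay farthest from the HuD-KO arrays, unlike in the interferon class, and without it the differences were 0.97 and 0.90. The remaining CD antigens were lower and have roles outside the immune system too. The tetraspanins Cd63 and Cd82 differed by -1.22 and -1.02, the TGF-beta coreceptor Cd109 by -1.16 and the checkpoint ligand Cd274 (PD-L1) by -1.08. Cd163, the haemoglobin scavenger receptor of border macrophages, was well above background on 2 of 3 HuD-KO arrays and, on this scale, at least 2.15-fold lower. WT replicate 3 was the lowest WT array in 1 of the 6 lower CD antigens. Ly6d, a lymphocyte antigen also made by epithelia, was higher and had the smallest spread, with 40.05, 37.3 and 38.7 in HuD-KO and 15.8, 16.9 and 15.96 in WT (difference 1.26, SE 0.04).

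Of the complement family, Cfb, factor B of the alternative pathway, gave 4.997, 6.49 and 6.19 in HuD-KO and 19.4, 38.5 and 15.7 in WT (difference -1.96, SE 0.41). C1rl, a C1r-like protease, gave 6.76, 8.18 and 6.94 in HuD-KO and 16.9, 18.2 and 14.8 in WT (difference -1.19, SE 0.12). C1ql3, which the symbol brings into the group, is a synaptic protein that neurons secrete, and it was higher, with 603, 482 and 587 in HuD-KO and 279, 261 and 300.4 in WT (difference 0.99, SE 0.12). The beta-defensins, antimicrobial peptides that are made mainly by epithelia, start 29.4 kb apart on chromosome 8. Defb39 gave 275, 262 and 261 in HuD-KO and 963, 1027 and 638 in WT (difference -1.69, SE 0.22), and Defb38 gave 6.86, 8.75 and 4.48 in HuD-KO and 27.3, 30.1 and 25.6 in WT (difference -2.10, SE 0.29). No caspase was among the members.

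By the functional annotation of the deposited tables, 7 of the 30 lower and 2 of the 10 higher genes had cytokine activity, beside 0.859% of the other 1048 listed transcripts. Defense response to virus was annotated for 5 of 30 lower and 0 of 10 higher genes (Cxcl10, Tlr7 and the 3 interferon alpha genes), beside 0.286% of the others. Since the genes were chosen by family names that carry these functions, the shares describe the group and are no result about HuD-KO.

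Markers of immune and other cells were looked up beside these genes, and only those in the lists have a name. Of 19 microglial markers, 1 was listed, Gpr34, a receptor of the X chromosome, which was higher in HuD-KO (13.1, 13.3 and 15.4 against 6.49, 8.18 and 5.29 in WT). Of 13 markers of border macrophages and monocytes, 1 was listed (Cd163), of 18 lymphocyte markers 1 (Cd4, higher), of 9 neutrophil markers 1 (S100a8, lower by a difference of -1.56) and of 15 endothelial and pericyte markers 0. Cd247, a T cell receptor chain that was not in the lymphocyte list, had the opposite direction to Cd4. The other markers in these lists carry no name here, so the cells that hold the 40 transcripts were not identified. In bulk tissue, fewer cells of a type and less RNA per cell cannot be told apart. Of 16 striatal neuron markers, 1 was listed, Gad2, with a difference of -0.97, and it was bright on all arrays.

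Choroid plexus and ependyma, tissues at the ventricle that can enter a dissection, had 10 of 19 markers in the lists, all lower in HuD-KO. Their summed scaled signal was 1259, 1902 and 1134 in HuD-KO and 5324, 3100.5 and 7740.0 in WT. Among WT arrays, all 10 markers were highest on replicate 3 and lowest on replicate 2, while the 10 interferon-class genes were highest on replicate 2 and lowest on replicate 3. The order of the markers was also that of 29.6% of all tested probes and 33.1% of the other listed lower transcripts. Of 10 markers each of oligodendrocytes and astrocytes, 1 was listed as lower in each. The part of these tissues in the differences of the 40 genes was not tested.

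The differences of the 40 genes had the listed direction under all alternatives that were run. With normexp background correction, which adds an offset to every signal, 18 genes instead of 39 were past 2-fold, and the medians of the lower and higher genes were -0.99 and 0.79. The value of Ccl8, one of the dim probes, was 0.02. Within row 1 of the slide, against WT replicate 1 alone, the medians were -1.54 for the interferon class and 1.01 for the higher genes.

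**Figure D4:**
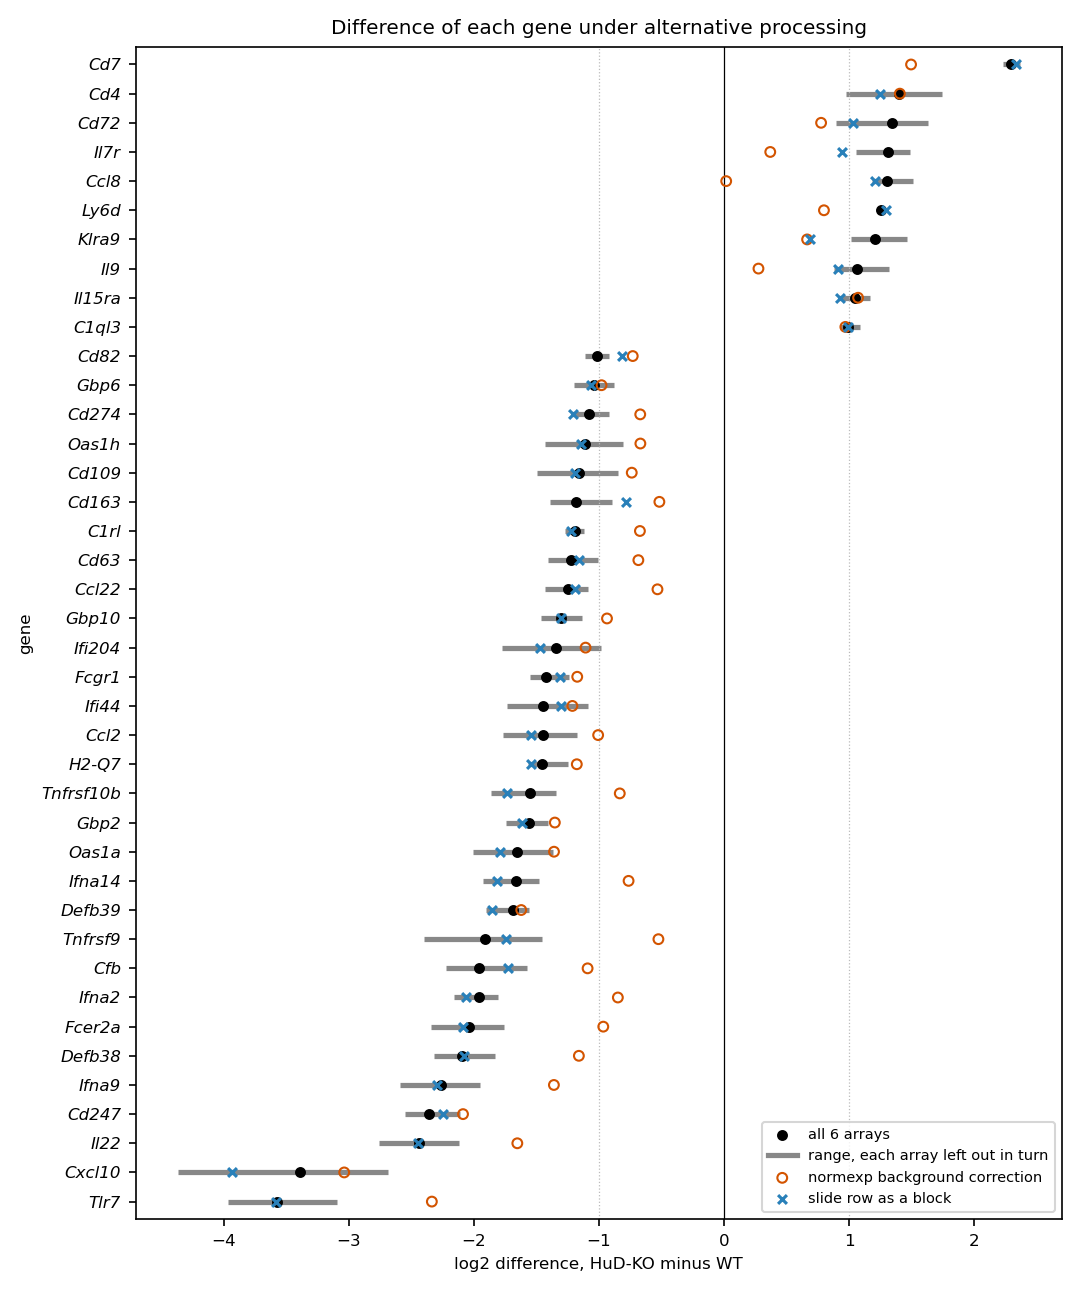
Log2 difference, HuD-KO minus WT, of each gene (x axis; genes on the y axis in order of the difference) with all 6 arrays (black points), with each array left out in turn (grey bars, the range), with normexp background correction (open circles) and in a fit blocked on slide row (crosses). Dotted lines mark 2-fold. Cxcl10 has the widest range, from -4.37 to -2.69, and the normexp value of Ccl8 is 0.02.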

How the data were processed

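RNA of 6 striata (3 HuD-KO, 3 WT littermates, each a separate mouse) had been amplified with oligo(dT) and random primers after removal of ribosomal RNA, labelled with Cy3 and hybridized to mouse lncRNA and mRNA arrays, and Agilent Feature Extraction 11.0.1.1 had read them. Per the file headers, the deposited intensity files hold background-subtracted and detrended signals of 62939 spots per array with no normalization between arrays. The authors deposited tables of 298 higher and 790 lower transcripts with raw intensity and log2 normalized values per array; the method of their log2 values is not given in the sources used here. The submitters' processing notes name limma. Columns of p-values, FDR and fold changes in these tables were not used. The raw columns equalled the scanner signal, floored at 5, within 0.1% in 6522 of 6522 values.

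Log2 processed signals were centred on each array's 75th percentile over target spots (534.6, 547.1 and 615.5 in HuD-KO, 496.2, 464.1 and 446.2 in WT). The 15 negative probes were treated as controls, 65 of 60915 target probes were left out for an outlier mark and 0 were saturated. A probe was tested if well above background on all 3 arrays of a group (47857 probes). All were fitted with limma 3.58.1 in R 4.3.3, tried before on simulated data, with Benjamini-Hochberg adjustment at 0.05. Tables were made with Python 3.11.15, numpy 2.4.6 and pandas 2.3.3. SE is that of the difference from the spread of 3 and 3 arrays. The share of target probes well above background was 77.7% to 81.9%, and the number of arrays limits precision. A bound is given where the dimmer group was not measured well above background on every array: its value on each array was raised to at least the dimmest signal still marked as well above background there.

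The members, their roles and the gene lists were chosen with earlier results of these data known. Every member is accounted for by family. Tlr7, Cxcl10 and the 3 members of each family with the largest differences have the value of every array, as have members on which a statement turns, and the others have their difference or bound. The alternatives were another percentile, quantile normalization, normexp on the median spot signal (offset 50), no filter, a filter on all 6 arrays, replicate and slide row blocks, leaving out the dim place or each array, the authors' log2 values and the methods' t-test. The median of the interferon class, the counts over 2-fold and the order of the WT arrays were added after the data were seen. Gene names and coordinates, counted from 1, are those of the deposited tables, which name no build. All 40 members matched RefSeq (GRCm38.p6) by gene ID, all began within 20 kb of its start and 23 at the same base. Motifs in transcript 3′ ends and a genome sequence were not analysed here.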

Additional observations from a re-analysis of the deposited data

How the results depend on the processing

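All 40 genes had the listed direction under all alternatives in which they could be measured, which were 34 genes under the filter on all 6 arrays and without the dim place of the array. With normexp, 18 of 40 genes were past 2-fold, the median was -0.99 for the lower genes, -1.04 for the interferon class and 0.79 for the higher genes, 28 of 40 differences moved by more than the spread between replicates, 1380 instead of 2837 probes passed 2-fold with an unadjusted p under 0.05, and 57.6% instead of 47.4% of called probes were lower. The offset of 50 is large against the signal of dim probes. Blocked on slide row, the median of the higher genes was 1.01, and 2 of 40 differences moved (Klra9 to 0.69 and Cd82 to -0.82). In that fit 283 instead of 14540 probes were called by limma. Its comparison within a row rests on WT replicate 1 alone, and why fewer probes were called was not tested. In a fit with a replicate block, 6528 probes were called. Deviations of arrays with the same number correlated at -0.03, -0.06 and -0.13. No pairing by number was seen, but with so few arrays these values cannot exclude it. Leaving out each array in turn gave 7130 to 13590 called probes, and the count was lower by over 1.5 times without HuD-KO replicates 1, 2 and 3 (7431, 9293 and 8017) and without WT replicate 1 (7130). The median of the interferon class was -1.25 without WT replicate 2 and -1.76 without WT replicate 3. At the study's own threshold, over 2-fold with an unadjusted p under 0.05, the methods' t-test counted 682 higher and 1931 lower probes. After Benjamini-Hochberg adjustment and with no fold threshold it called 11431 in all. These counts cover all tested probes, of long non-coding and messenger RNAs alike. The remaining alternatives moved no median by more than the spread between arrays. Signal over background limits 6 of the 40 probes, whose differences are bounds.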

Other observations

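Beyond the immune gene families, 28 further listed transcripts, leaving out symbols on 2 or more rows such as Enpp2, were annotated in the deposited tables with at least 1 of 7 immune terms (immune, innate immune, virus, inflammatory, cytokine or chemotaxis terms), 24 of them lower and 4 higher in HuD-KO. Over all 1088 listed transcripts, 790 were lower and 298 higher. The 28 transcripts were chosen by the same comparison, so their count and values are a description. Lsp1, an actin-binding protein of leukocytes, gave 27.4, 39.8 and 34.6 in HuD-KO and 249.8, 360.0 and 141 in WT (difference -2.80). Xcl1, a chemokine of T and NK cells outside the families of symbols used here, differed by -1.26. Sp110, an interferon-induced nuclear protein, gave 9.73, 8.76 and 8.67 in HuD-KO and 27.9, 36.8 and 24.2 in WT (difference -1.69), again with WT replicate 2 the highest and WT replicate 3 the lowest WT array. Btk, a kinase of B cells and myeloid cells on the X chromosome, differed by -1.38, and P2rx7, an ATP-gated channel of microglia and macrophages, by -1.52. Other secreted factors with a cytokine annotation were also lower: Edn1 (-2.08), Gdf15 (-2.06), Gdf5 (-1.74), Spp1 (-1.41), Areg (-1.07) and Vegfa (-1.03). Bmp3 differed by 1.41, and Cer1, not well above background in WT, was at least 2.12-fold higher.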
